A study of Gallus gallus with 16 samples.

Results

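The probes described here are those whose level in the chicken embryonic pituitary rose more between embryonic days 12 and 14 than over either other interval sampled. They number 109, out of 7200 rows on a cDNA microarray and 7103 rows with at least 3 values at every age. Members were chosen from the age means of the deposited log ratios: the mean at day 17 had to exceed that at day 10 by 0.6 or more, and the difference of day 14 minus day 12 had to be the largest of the 3 consecutive steps. The age means and their differences are therefore the values that chose the members, and they are given as a description, with no test. The 4 ages are written E10, E12, E14 and E17 below; 4 replicates were measured at each, and the labels give no strain, sex or treatment. A replicate combined the pituitaries of 16 embryos on day 10, of 8 on day 12, of 4 on day 14 and of 2 on day 17. Amplified RNA of each pool was labelled with Cy3 and hybridised against a Cy5-labelled pool of all 16 samples. The probe annotation used here gives 1 gene symbol for 54 rows, several for 0 rows and none for 7146, and 0 of the 109 members have one. The 54 rows all carry the same symbol, so the annotation names only 1 gene. Probes are accordingly given by row number, no gene function is attached to them, and the tissue could not be checked against pituitary marker genes.

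The anterior pituitary makes its hormones in separate cell types, among them thyrotrophs, which secrete thyrotropin, somatotrophs, which secrete growth hormone, and lactotrophs, which secrete prolactin. The study's title names these 3 types. In the chicken embryo thyrotrophs appear before somatotrophs, and lactotrophs become numerous only towards hatching. Corticosterone and thyroid hormone act on the embryonic pituitary during this period, and corticosterone can bring forward the appearance of growth hormone cells. None of this could be tied to a probe here. In RNA of whole glands, more cells of a type and more RNA per cell cannot be told apart.

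Every array held between 7023 and 7194 values, with medians between -0.0226 and 0.0357 and SDs between 0.2612 and 0.2614, so the deposited columns had been centred and scaled to one spread. A value below is a scaled log ratio, read as log2 of sample over pool, and differences are not given as fold changes. The base and the direction are not stated with the values. Over the 56 probes whose age means varied most (variance above 0.5), the mean ratio of the 4 ages varied less from probe to probe when values were read as sample over pool (SD 0.102 on the log2 scale) than with the sign turned (SD 0.33), and that direction was kept. The median of this mean ratio was 0.918 in the first reading and 1.489 in the second. For unscaled ratios to an even pool it would lie near 1. Values scaled to a common spread are not plain ratios to the pool, which limits this check. With the sign turned every rise below would be a fall. The lowest correlation between 2 arrays was r = -0.37 across 6852 probes, and arrays either side of a pool of all ages can correlate negatively. Before the results, 2 features of the arrays bear on them. E14 replicate 1 stood apart from the other E14 arrays in the member probes. Replicates 3 and 4 of both E12 and E14 lacked 39 to 45 of the values in rows 1 to 45, where the other arrays lacked 0 or 1, and these 4 are called the blank-block arrays.

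The member probes were below the pool at E10 and E12 and mostly above it from E14. All 109 had a mean below 0 at E10 and at E12, 87 had one above 0 at E14 and 108 at E17. Averaged over the members, E10 arrays stood at -0.76 ± 0.07, E12 arrays at -0.60 ± 0.07, E14 arrays at 0.13 ± 0.27 and E17 arrays at 0.47 ± 0.05 (SD over arrays, n = 4). The 4 arrays of E14 lay at -0.278, 0.31, 0.257 and 0.224, and those of E12 at -0.616, -0.564, -0.69 and -0.524. The means of E14 and E12 arrays did not overlap, and E14 replicate 1 lay between the E12 arrays and the other E14 arrays. The median step was 0.58 from E12 to E14 (range 0.24 to 2.21), against 0.20 from E10 to E12 and 0.28 from E14 to E17. The step from E12 to E14 made up a median of 56.7% of the whole rise, with a range of 34.0% to 109.8%. It was larger than the other steps added together in 70 of the 109 members (64.2%), and in the rest it was not. The whole rise had a median of 1.00 and a range of 0.60 to 3.22, and was 1 or more in 56 members and 2 or more in 14.

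**Figure D1:**
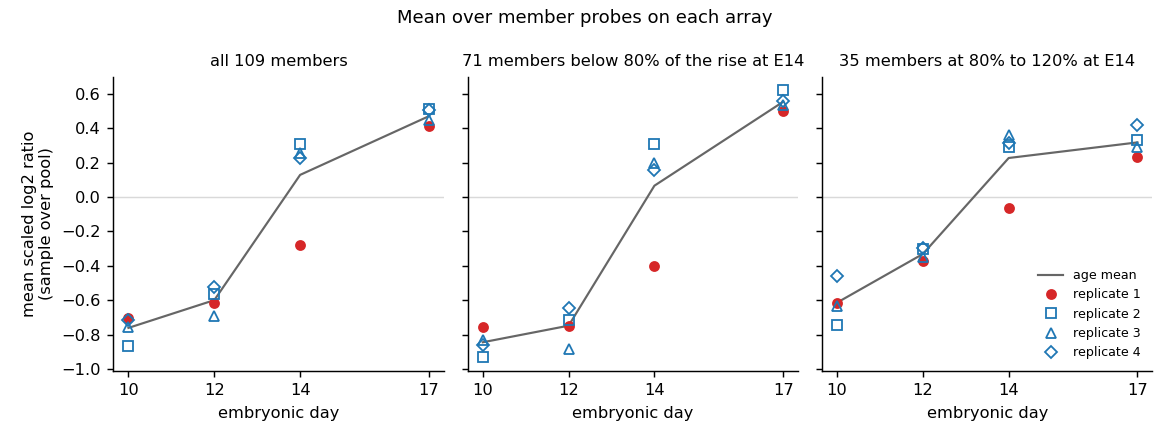
Mean over member probes on each of the 16 arrays (vertical axis, scaled log2 ratio of sample over pool) against embryonic day (horizontal axis), for all 109 members and for the 71 and 35 members that had reached under 80% or 80% to 120% of their rise at E14. Symbols mark the replicates and lines join the age means. E14 replicate 1, filled, lies at -0.278 in the left panel, against 0.224 to 0.31 for the other E14 arrays.

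Of the 109 members, 71 had means that went up at every step. A lower mean at E12 than at E10 was seen in 29, by at most 0.38, and a lower mean at E17 than at E14 in 9. Members that started lowest had the largest steps: across the 109, the mean at E10 and the step from E12 to E14 correlated at r = -0.889, a description of probes that were measured on the same arrays and chosen partly by these means. In limma's fit of all 16 arrays, with p-values adjusted over all probes, 44 members (40.4%) were past an adjusted p of 0.05 as higher at E14 than at E12, where 0.69% of all probes were. For E17 against E10 the count was 107 (98.2%), where 6.65% of all probes were. It was 11 for E17 against E14 (0.859% of all probes) and 0 for E12 against E10 (0.296%). With the replicate number as a block, 49 members were called for E14 against E12 (0.845% of all probes) and 108 for E17 against E10 (7.56%). The rule used each of these contrasts, so nothing is read from the counts. The fit shares one spread among the ages. The members' median SD was larger at E12 and E14 (0.18 and 0.291) than at E10 and E17 (0.129 and 0.139). Over all probes tested the order was the same, with 0.165 and 0.186 at E12 and E14 and 0.113 and 0.136 at E10 and E17. A fit of E12 and E14 alone called 17 members, where 0.239% of all probes were called.

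Most members had not reached their E17 level by E14. At that age 71 had reached under 80% of the rise from E10 to E17, 35 had reached between 80% and 120%, and 3 had gone beyond. The classes depended on E14 replicate 1: without it they held 50, 52 and 7 members, and the median share of the rise reached by E14 was 81.0% in place of 71.9%. Averaged over the 71, the arrays stood at -0.84 ± 0.07, -0.75 ± 0.10, 0.07 ± 0.32 and 0.55 ± 0.05 at E10, E12, E14 and E17 (SD over arrays, n = 4). In the 35 they stood at -0.61 ± 0.12, -0.33 ± 0.04, 0.23 ± 0.19 and 0.32 ± 0.08. The classes are read from the same means that define them.

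Probe 5037 had the largest step of all members. It read -2.015, -2.356, -2.264 and -2.141 at E10, then -2.009, -2.135, -2.267 and -1.649 at E12. At E14 it read -1.043, 0.62, 0.763 and 0.425, and at E17 0.854, 1.176, 0.916 and 0.934. All E14 values lay above all E12 values, with replicate 1 nearer to E12 than to its own age, and E10 and E12 overlapped. The step from E12 to E14 was 2.21, and 75.4% of the rise of 3.16 had been made by E14.

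Probe 5909 went with it in size, with a step of 1.98 in a rise of 3.08. Its E10 values were -1.964, -2.427, -1.719 and -2.237, and its E12 values -1.732, -2.005, -2.136 and -1.324. At E14 they were -0.312, 0.721, -0.101 and 0.42, and at E17 1.116, 1.001, 1.024 and 0.833. E14 again cleared E12 on every array, and here replicate 1, though the lowest at E14, lay close to replicate 3.

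In the class that was level from E14, probe 3083 had the largest step, 1.49, but the E14 arrays disagreed. It read -0.816, -1.138, -1.081 and -1.316 at E10 and -1.177, -1.154, -1.111 and -0.754 at E12. At E14 the values were -0.589, 0.195, 2.383 and -0.219, and at E17 0.663, 0.447, 0.097 and 0.596. The single value of 2.383 on replicate 3 was above every E17 value, while the other E14 values were below the E17 mean of 0.45 (SD 0.25, n = 4). The level mean at E14, 0.44 ± 1.33, thus joins values on either side of E17, and without E14 replicate 3 the step was 0.84 in place of 1.49.

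Probe 382 followed the same class with less spread at E14. Its values were -1.143, -1.241, -0.882 and -0.546 at E10, and -0.288, -0.467, -0.364 and -0.208 at E12. They were 0.178, 0.687, 0.822 and 0.545 at E14, and 0.886, 0.904, 0.881 and 0.967 at E17. No 2 ages overlapped, and the step from E12 to E14 of 0.89 followed one of 0.62 from E10 to E12.

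The 3 members that had gone beyond 120% of their rise at E14 included probe 5458. It read -0.737, -1.009, -0.78 and -0.41 at E10 and -0.451, -0.209, -0.208 and -0.228 at E12. The E14 values were 0.239, 0.698, 0.493 and 0.875, followed by 0.285, 0.393, 0.148 and 0.446 at E17. Its E14 and E17 values overlapped, with replicate 1 the lowest at E14. Probe 2542 had a step of 0.67 and stood 0.24 lower at E17 than at E14, with SDs of 0.29 and 0.46 (n = 4 each) at E17 and E14, so this later difference was smaller than the spread between replicates.

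**Figure D2:**
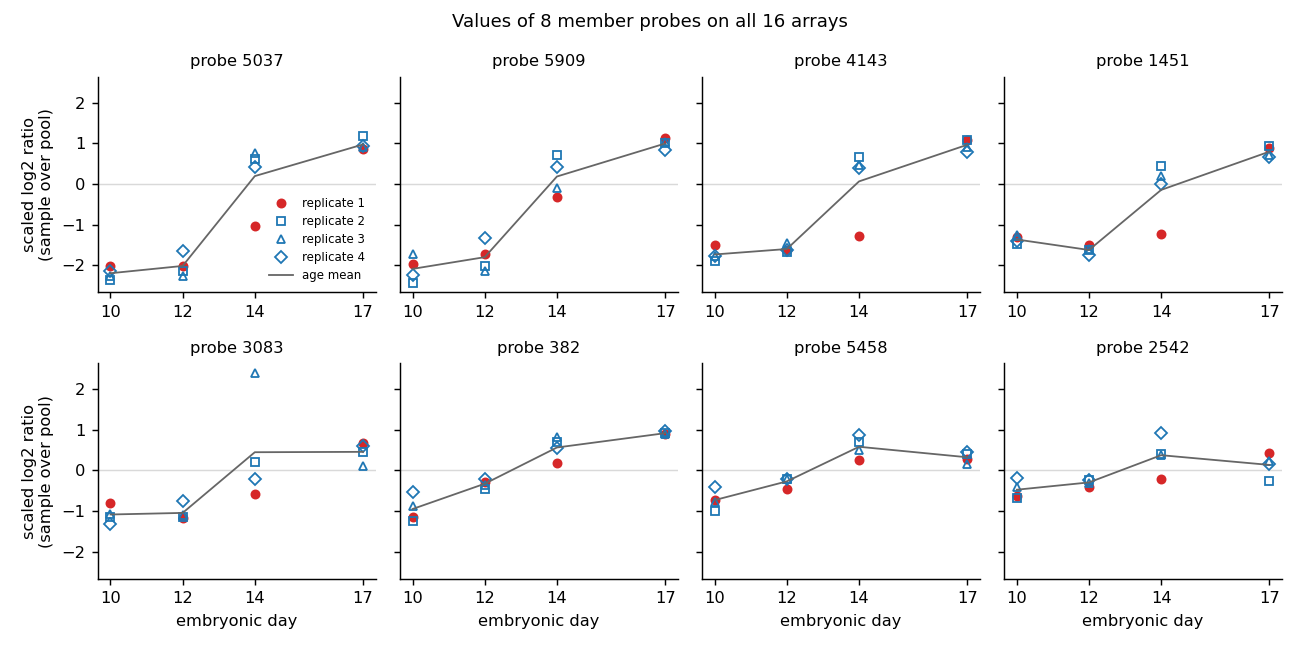
Values of 8 member probes on all 16 arrays (vertical axis, scaled log2 ratio of sample over pool; horizontal axis, embryonic day), with symbols for the replicates and lines through the age means. Probes 5037, 5909, 4143 and 1451 had reached under 80% of their rise by E14, probes 3083 and 382 between 80% and 120%, and probes 5458 and 2542 more. Without E14 replicate 1, probes 5037 and 4143 fell between 80% and 120%, and probe 3083 lay above 120%. The filled symbol, replicate 1, is the lowest E14 value in all 8.

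The edges of the group were not sharp. The member nearest to the threshold on the rise, probe 1495, rose by 0.6013 from E10 to E17, and the nearest probe outside it, probe 2702, by 0.5911. In all, 14 probes, probe 2702 among them, had a rise of 0.5 to under 0.6 with the largest step from E12 to E14. There were 21 members with a rise under 0.7. On the other criterion, probe 6459 was a member by 0.0018, with steps of 0.314, 0.332 and 0.33 in order of age. Probe 1733, with steps of 0.019, 0.314 and 0.318, missed by 0.0043. There were 18 members whose largest step led the next by under 0.05, and 15 probes outside that fell short by under 0.05. In such probes 2 steps were about equal.

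E14 replicate 1 was the lowest of the E14 arrays for 89 of the 109 members (81.7%), against 26.8% of all probes tested. The rule does not use how arrays of one age differ among themselves. This array read below the mean of the other E14 arrays in 99 members (90.8%), against 49% of all probes with a value, by a median of 0.47. It was still above the E12 mean in 102 of the 109, and its median place was 36.2% of the way from the E12 mean to the mean of the other 3 arrays. The medians of each E14 array minus the E12 mean were 0.29, 0.71, 0.68 and 0.67 for replicates 1 to 4 over the members, and between -0.03 and 0.01 over all probes. The members that rose most to the other 3 arrays also fell short most on replicate 1 (r = 0.866 across 109 members, where both measures contain the mean of those 3 arrays). Over the 6852 probes with a value on every array, E14 replicate 1 correlated at 0.601 with E12 replicate 1 and at -0.015 to 0.272 with the other E14 arrays. Arrays of one number may share some deviation, and the correlations of this array with the other E12 arrays are not given here. Without E14 replicate 1 the members' median SD at E14 was 0.174 in place of 0.291, against 0.162 in place of 0.186 over all probes. As this array was the lowest for most members, a smaller SD without it follows for many of them. The SD without another E14 array was not computed.

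Clean separation of the ages was also counted. Every E14 array was above every E12 array in 61 members (56%), where this held for 2.51% of all probes. With E14 replicate 1 left out, it held in 91 members (83.5%), where it held for 5.31% of all probes. Leaving out an array can only raise this count, and with E14 replicate 2, 3 or 4 left out it was 64, 61 and 62 members, where it held for 3.65%, 3.53% and 3.6% of all probes. Every E17 array was above every E10 array in 106 members (97.2%), against 10.7% of all probes. For E12 over E10 the count was 20 (18.3%, against 3.52%), and for E17 over E14 39 (35.8%, against 2.67%). The rule used the means behind these counts, and nothing further is read from them. Without E14 replicate 1, limma called 70 of the 107 members that could still be tested as higher at E14 than at E12, where 1.7% of all probes were called, in place of 44.

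**Figure D3:**
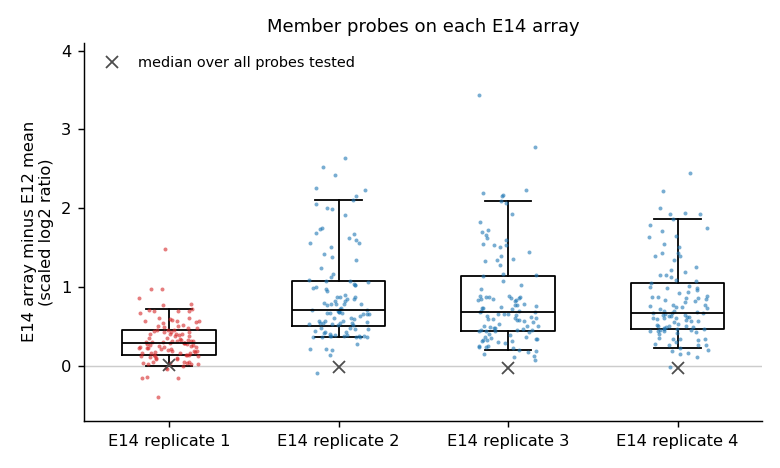
Value of each member probe on each E14 array minus its mean at E12 (vertical axis, scaled log2 ratio; horizontal axis, the 4 E14 arrays). Points are member probes, boxes span the quartiles with the median as a line, whiskers reach the 5th and 95th percentiles, and crosses mark the median over all probes tested. The median is 0.29 on replicate 1, against 0.67 to 0.71 on the others, and the crosses lie near 0.

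The step was also read on either side of the blank-block split, as a description, since the rule chose the members on the means of these same arrays. On the blank-block arrays alone E14 exceeded E12 in 109 of 109 members, with a median difference of 0.69 (45.9% of all probes were positive). On the other arrays of these ages it did so in 109 of 109 as well, with a median of 0.47 (45.3% of all probes). The lower median came with E14 replicate 1: set against the same E12 arrays, that array gave a median of 0.25 and E14 replicate 2 gave 0.71. A term for blank-block against other arrays within E12 and E14 called 0 members in limma's fit, where 0% of all probes were called. At an unadjusted p under 0.05 there were 8 members (7.34%), near the 8.31% of all probes. Without all 4 blank-block arrays, limma called 1 of 108 members for E14 against E12, where 0.014% of all probes were called, with a median difference of 0.47. That fit has 2 arrays left at each of these ages, E14 replicate 1 among them, so the blank block, the smaller number of arrays and that array cannot be told apart in it.

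To read the step on arrays that had no part in the choice, the rule was applied to the arrays numbered 1 and 2 at each age, and the probes it chose were tested on those numbered 3 and 4. At E12 and E14 this division is the same as the blank-block split, and all arrays share the reference pool. It chose 88 probes, 61 of them members, and 83 could be tested. E14 was higher than E12 on the unused arrays in 79 of the 83 (95.2%), with a median difference of 0.57, against 46% of all 6959 probes and a median of -0.02. Limma called 15 of the 83 (18.1%) as higher at an adjusted p of 0.05, where 0.359% of all probes were called, and 0 as lower. At an unadjusted p under 0.05, 59 were higher (71.1%), against 5.39% of all probes. Whether this step was also the largest of the 3 on the unused arrays was not read. Probes whose rise had another timing were not set beside the chosen ones.

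With the roles exchanged, 130 probes were chosen on replicates 3 and 4, 89 of them members. On replicates 1 and 2, 124 of the 129 that could be tested were higher at E14 than at E12 (96.1%), with a median of 0.38, against 45.1% of 7086 probes and a median of -0.02. Limma called 0 of them, where 0% of all probes were called. At an unadjusted p under 0.05, 56 were higher (43.4%), against 2.92% of all probes. E14 replicate 1 is among these arrays. Without it, and with 1 array left at E14 that was assumed to vary like the other ages, limma called 26 of the 129 (20.2%), where 0.536% of all probes were called, and the median difference was 0.61.

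Both choices shared 51 of the 167 probes chosen on either set of arrays, and the rule makes these 51 members by construction. Probes 5037 and 5909 are among them, and since they were named for their step over all arrays their values are a description. Probe 5037 exceeded its E12 level by 2.55 on replicates 3 and 4 (SE 0.20) and by 1.86 on replicates 1 and 2 (SE 0.43). Probe 5909 did so by 1.89 on replicates 3 and 4 (SE 0.28) and by 2.07 on replicates 1 and 2 (SE 0.30).

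With 1 replicate number at a time kept out of the choice, the step was read on the arrays of that number. For number 1, 100 of 120 chosen probes were higher at E14 than at E12 (83.3%, median 0.26). For number 2 this held in 102 of 106 (96.2%, median 0.57), for number 3 in 79 of 80 (98.8%, median 0.70) and for number 4 in 109 of 118 (92.4%, median 0.50). Over all probes the share was 46% to 50.1%. Number 1, which brings in E14 replicate 1, had the smallest median.

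**Figure D4:**
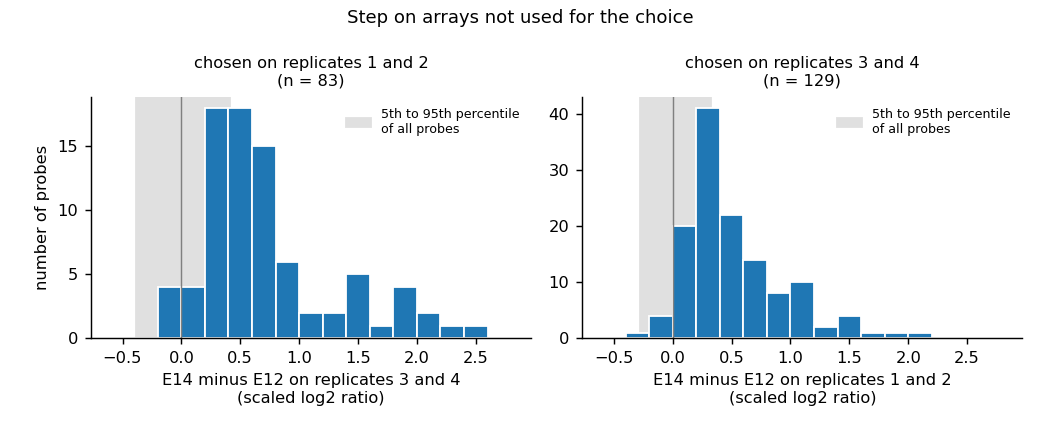
Difference of E14 minus E12 on arrays that were not used for the choice (horizontal axis, scaled log2 ratio; vertical axis, number of probes). Left, 83 probes chosen on replicates 1 and 2 and read on replicates 3 and 4. Right, 129 probes chosen on replicates 3 and 4 and read on replicates 1 and 2. The grey band spans the 5th to 95th percentile of all probes, and most chosen probes lie to the right of 0 (79 of 83 and 124 of 129).

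Members also deviated together from their age means. Over the 107 members with all 16 values, the median correlation between the deviations of 2 members was 0.338, and 82.2% of the 5671 pairs were positive, against a median of -0.001 and 49.9% over all probes. Without E14 replicate 1, the only array left out by itself here, the median was 0.102, with 61.6% of pairs positive. On the E10 and E17 arrays alone it was 0.143. These are correlations across the same arrays and the pairs are not independent. The closest pair was probes 1451 and 4143, whose deviations correlated at 0.967 over 16 arrays and at 0.67 without E14 replicate 1. Probe 4143 read -1.274, 0.653, 0.469 and 0.401 on the E14 arrays, and probe 1451 read -1.225, 0.433, 0.202 and 0.005. In both, replicate 1 was close to the E12 values (-1.668 to -1.457 and -1.753 to -1.504) while the other 3 arrays were above 0. Their rows are 2692 apart in the table, and whether they carry the same cDNA is not known here.

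Probes with the same total rise but another timing gave a comparison, made without a test. The rise of 0.6 was reached by 286 probes, of which 104 had their largest step from E10 to E12 and 73 from E14 to E17. E14 replicate 1 was the lowest E14 array in 81.7% of the members, 79.8% of the 104 earlier probes and 38.4% of the 73 later ones. The median deviation of this array from the other E14 arrays was -0.47, -0.40 and -0.07 in the same order. The pairwise correlation of deviations was 0.338 in the members, 0.463 in the earlier and 0.048 in the later probes. Without that array it was 0.102, 0.366 and 0.057. A low E14 replicate 1 was thus also seen in the earlier probes.

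Row number was not used by the rule, and the members lay unevenly along the table. Rows 1 to 3600 held 87 of the 109 (79.8%), where 49.4% of all probes tested lie. Among probes that rose earlier 69.2% were in these rows, among those that rose later 71.2%, and 61.7% among the 162 probes whose mean was lower at E17 than at E10 by 0.6 or more. Members made up 2.48% of the probes tested in rows 1 to 3600 and 0.612% of those in rows 3601 to 7200. Of probes with the rise of 0.6 they made up 41.2% and 29.3%. The members' median step was 0.55 in the first set of rows and 0.83 in the other. Only 3 pairs of members were in adjacent rows. How rows map to places on the slide or to clone sources is not given in the sources used here, and their part in this was not tested.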

How the data were processed

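RNA of 16 pituitary pools (500 ng each, per the labels' protocols) was amplified, and the pool to which each gave 2 µg served as the common reference. The deposited values are 1 log ratio per spot and array, treated as log2; how images were read, spots filtered and ratios normalized is not given in the sources used here. Centring and scaling were read from the values. Scanner intensities were not used here.

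Members were found with the rule stated in the results. The members, the lists and the tests were chosen with earlier results of these data known. Fits used limma 3.58.1 in R 4.3.3 (lmFit, eBayes) with a mean per age, 1 residual variance per probe over the arrays entered and Benjamini-Hochberg adjustment over every probe tested, at a threshold of 0.05. Of 7200 rows, 97 had under 3 values at some age and were left out. For choices on 2 replicate numbers, both values at every age were required. Age means skip missing values. The scripts were tested on simulated data. Named probes were, in each class of the share of the rise reached at E14, the 2 members with the largest step, the probes nearest to each limit of the rule, and the pair of members whose deviations correlated most. Probes called on both sets of unused arrays were to be named too, and there were none. The gene lists set up for hormone cells, blood, vessels and other tissues gave no result, as no member has a symbol. The annotation holds only 1 distinct symbol over all rows. With 4 arrays per age, their number limits the precision.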

Additional observations from a re-analysis of the deposited data

Results flagged for a closer look

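By Dixon's ratio, 1 of 4 arrays stood apart in 6 of 64 groups, where chance flags about 3.2 (1 in 20). E14 replicate 1 gave 3 of them: its mean over all members was -0.278, against 0.224 to 0.31 on the other arrays, its mean over the members level from E14 was -0.062, against 0.291 to 0.36, and probe 4143 read -1.274, against 0.401 to 0.653. The first and second of these share probes, and probe 4143 is itself in the first mean. That probe was named for a correlation of deviations of 0.967, which was 0.67 without E14 replicate 1. The groups are thus neither independent nor chosen apart from this array, and no excess over chance is read from the count. The other 3 flags were at E12. Probe 3083 read -0.754 on replicate 4, against -1.177 to -1.111. Probe 5458 read -0.451 on replicate 1, against -0.228 to -0.208. Probe 4143 read -1.457 on replicate 3, against -1.668 to -1.634. The cause of these values was not tested.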

How the results depend on the processing

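The alternatives on the blank-block arrays, and the fits of E12 and E14 alone on unused arrays, were added after seeing the data; all further ones had been planned. The number of members stayed within 1.5 times 109: it was 111 with array medians subtracted (108 of the 109 kept), 139 after quantile normalization (101 kept), 119 with medians in place of means (93 kept), 128 with steps per day (109 kept), 73 and 123 with a rise of 0.8 and 0.5, 89 without the blank-block arrays (70 kept), and 87 to 137 with 1 array left out. Members called higher at E17 than at E10 (107, where 6.65% of all probes were) numbered 104 to 108 in every fit tried, 105 to 107 with 1 array left out. Members called higher at E14 than at E12 (44, where 0.69% of all probes were) numbered 17 in a fit of these ages alone (0.239% of all probes). They numbered 1 without the blank-block arrays (0.014%) and 31 to 70 with 1 array left out, highest without E14 replicate 1 (1.7%). The remaining fits gave 34 to 59. Probes chosen on replicates 1 and 2 and called on the others (15) numbered 10 to 16 with 1 array left out and 10 in a fit of E12 and E14 alone. With the choice exchanged (0) they numbered 0 to 26, and 26 arose only without E14 replicate 1. The blank-block term called 0 members after either normalization too (limma). Fits of fewer arrays estimate the spread from fewer values. Where no share of all probes is given here or in the results, it was not counted. A change in such a count is not read as a change in the members. Named members kept the sign of their E14 minus E12 difference, and moved by less than the replicate SD, in all alternatives run. Leaving out an E10 or E17 array could not change this difference, since those arrays do not enter it. Leaving out 1 E12 or E14 array cannot move the mean of that age by as much as the SD of that age. For alternatives with 1 array left out, nothing is therefore read from the size of the move. The replicate SD is wide for some. Without the blank-block arrays the differences of probes 3083, 2542 and 1495 were 0.97, 0.42 and 0.21 in place of 1.49, 0.67 and 0.38. Without E14 replicate 3 that of probe 3083 was 0.84, and its SD of 1.33 at E14 includes the 2.383 on that array.

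Replicate numbers were not taken to pair the arrays: same-numbered arrays of different ages correlated over 0.1 in their deviations in 13 of 24 pairs (-0.089 to 0.442, median 0.128) and not in all. Differently numbered arrays did so in 10 of 72 (median -0.044), and an array correlated best with its own number in 28 of 48 cases, where 12 would be expected from 4 numbers, a hint from the data that numbers share some deviation. Deviations cancel within an age, so the low correlations between different numbers follow in part from the higher ones within a number. With a replicate block, 49 members were called for E14 against E12 (0.845% of all probes) and 108 for E17 against E10 (7.56%). The fits on unused arrays had no such block.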
